A study of Danio rerio with 6 samples.

Results

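The genes described here are 8 components of the Notch signalling pathway in zebrafish embryos: the ligands dla, dlb, jag1a and jag1b, the receptor notch3, the gamma-secretase subunit aph1b, and the transcriptional repressors her6 and her9. They were taken by probe set identifier, with dlb found by its name in the deposited comparison tables, and are measured by 9 of the 15502 probe sets on the array that are not controls, because 2 probe sets are named dlb. The probe set of notch3 is assigned in those tables to a further locus as well, a predicted gene described there as similar to Notch3, so its signal cannot be given to notch3 alone. All members could be named only because the authors' tables, which hold folds of at least 2 or at most 0.5 on these same samples, list each of them in at least 1 comparison. The rises reported below are therefore no independent evidence of direction.

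The study concerned ERbeta2 in the formation of neuromasts, the lateral line's sense organs. RNA came from whole embryos at 72 h after fertilization, raised at 28 °C, and was hybridized to 6 Affymetrix arrays in 3 groups of 2. ERbeta2 MO embryos had received 50 uM of a morpholino, an antisense oligonucleotide, designed to keep the mRNA of the estrogen receptor ERbeta2 from being translated; its effect on the protein was not measured here. coMO embryos had received a standard control morpholino at 50 uM, and uninjected embryos none. Injections ended by the 4-cell stage, and the eggs came from several aquaria and were pooled. No strain or genotype is labelled, and the titles call the replicates biological without saying that they came from separate clutches. The p-values therefore measure only the spread between these samples, which may be technical.

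Notch is a receptor that is activated by ligands on a neighbouring cell. Delta ligands such as dla and dlb and Jagged ligands such as jag1a and jag1b bind it, gamma-secretase, of which aph1b is a subunit, then cuts it within the membrane, and the freed intracellular part enters the nucleus and switches on genes such as the hairy-related her repressors. In the embryonic nervous system and in sensory organs, lateral line neuromasts included, this exchange between neighbours limits how many cells of a progenitor field differentiate at a time. Delta genes are typically expressed by cells that are starting to differentiate as neurons or hair cells, and her genes by the progenitors around them. In whole-embryo RNA, more cells of a type and more RNA per cell cannot be told apart.

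The 6 arrays had been scaled by the authors to a common level, with a mean signal after trimming of about 500 on each. The ERbeta2 MO arrays stood apart from the other 4 across the array: their correlation with coMO and uninjected arrays was 0.799 to 0.813 over tested probe sets, against 0.978 to 0.986 between coMO and uninjected arrays. The 3'/5' signal ratio of a transcript rises when RNA is degraded or incompletely labelled. For GAPDH it was 2.14 and 2.15 in ERbeta2 MO, 1.66 and 1.34 in coMO, and 1.47 and 1.35 in uninjected embryos. For the actin gene acta1 it was larger on every array, at 13.57 and 11.59 in ERbeta2 MO and 7.64 and 5.72 in coMO. In uninjected embryos the acta1 ratio was 5.41 and 10.04, a wide spread within the group. Poly-A spikes, which are RNAs added to the sample, had a mean log2(signal + 16) of 6.61 and 6.42 in ERbeta2 MO, 7.22 and 7.52 in coMO, and 6.93 and 7.23 in uninjected embryos. On the same scale the hybridization controls stood at 11.03 and 11.16 in ERbeta2 MO, 11.55 and 11.54 in coMO, and 11.33 and 11.60 in uninjected embryos. These values move with every difference between ERbeta2 MO and the other groups given below, and their part in it was not tested.

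The signals of all members were higher in ERbeta2 MO embryos than in either other group. For each of the 9 member probe sets both ERbeta2 MO arrays lay above the other 4 arrays, as they did for 37.2% of the 9302 probe sets that passed the filter on dim signals (41.8% against coMO alone and 42.1% against uninjected embryos alone). By the fitted differences of the 8 tested probe sets, dla, dlb and jag1b differed by more than 2-fold and the other members by 1.46-fold to 1.82-fold. No member differed between coMO and uninjected embryos past the threshold.

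**Figure D1:**
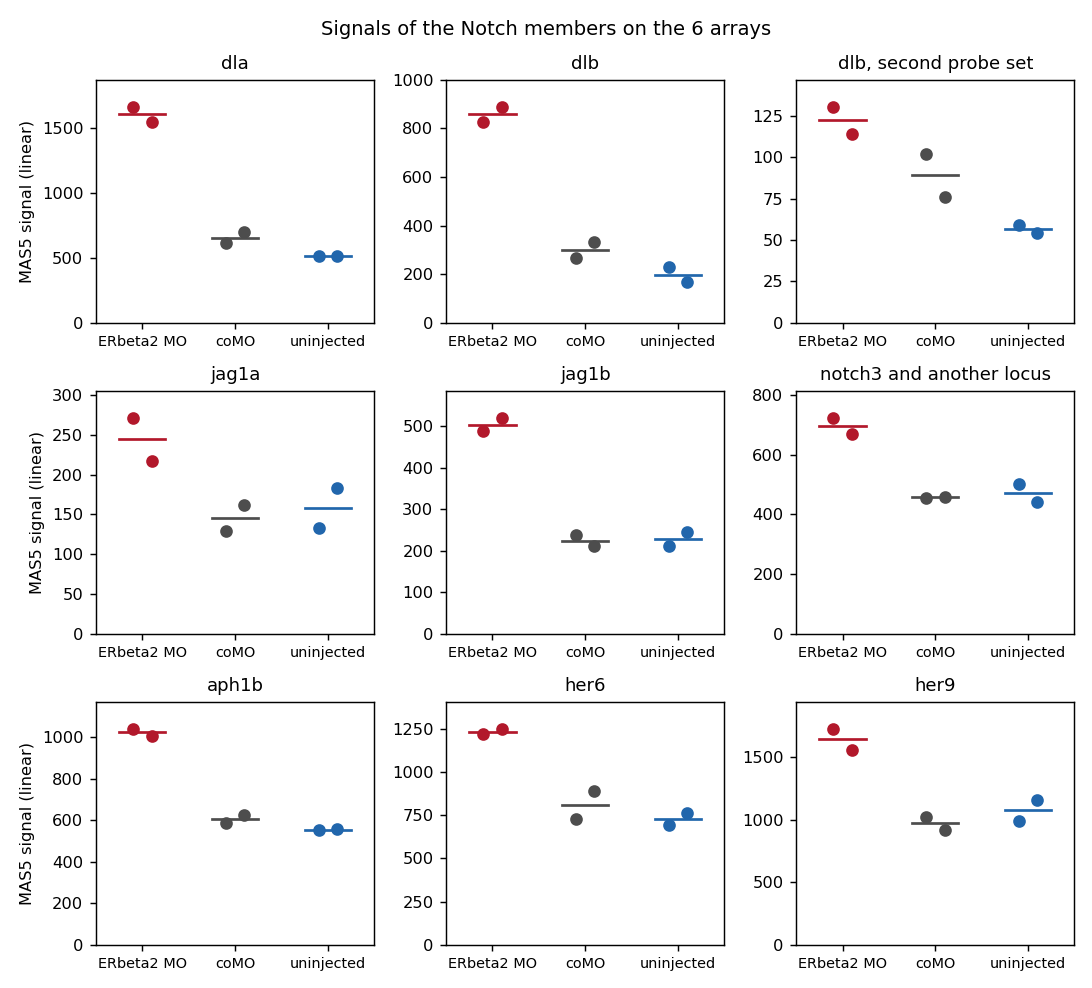
MAS5 signal on a linear scale for each of the 9 member probe sets, by group; each point is 1 array and each bar the mean of 2. In every panel both ERbeta2 MO points lie above the 4 points of coMO and uninjected embryos, closest for jag1a and for the dim second probe set of dlb.

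Among the ligands, dla, the gene of DeltaA, had signals of 1666 and 1547 in ERbeta2 MO embryos, 613 and 699 in coMO embryos, and 513 and 514 in uninjected embryos. The groups were separated, with the 2 coMO arrays also above both uninjected arrays. Its log2 difference was 1.27 ± 0.14 (SE) between ERbeta2 MO and coMO (limma, adjusted p = 1.96e-07) and 1.61 ± 0.14 (SE) between ERbeta2 MO and uninjected embryos (limma, adjusted p = 5.12e-09). All log2 differences are on the scale of log2(signal + 16), which understates the change of dim probe sets, and are called at an adjusted p below 0.05 over all tested probe sets.

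For dlb, the gene of DeltaB, the probe set that passed the filter gave 826 and 890 in ERbeta2 MO, 266 and 332 in coMO and 228 and 165 in uninjected embryos. These are the largest differences of the tested members: log2 1.48 ± 0.18 against coMO (limma, adjusted p = 6.68e-07) and 2.05 ± 0.18 against uninjected embryos (SE; limma, adjusted p = 4.89e-09). Here too both coMO arrays were above both uninjected arrays. The second dlb probe set had signals of 131 and 114 in ERbeta2 MO, 102 and 76.2 in coMO and 58.8 and 54.0 in uninjected embryos, and did not pass the filter. It kept the same order of groups, with a smaller gap to coMO. Fitted with no filter, it stood at log2 0.41 ± 0.26 (SE) against coMO, which did not pass (limma, adjusted p = 0.229), and at 0.93 ± 0.26 (SE) against uninjected embryos, which did (limma, adjusted p = 0.0107). The 2 dlb probe sets thus gave different calls against coMO.

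The 2 Jagged1 genes, co-orthologs of the mammalian ligand gene JAG1, gave unequal differences. jag1b had signals of 488 and 521 in ERbeta2 MO, 237 and 211 in coMO and 210 and 245 in uninjected embryos. Its ERbeta2 MO arrays were about 2 times as bright as the rest, and coMO and uninjected arrays overlapped. The log2 difference was 1.12 ± 0.18 (SE) against coMO (limma, adjusted p = 1.62e-05) and 1.10 ± 0.18 (SE) against uninjected embryos (limma, adjusted p = 2.04e-05).

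jag1a had signals of 271 and 218 in ERbeta2 MO, 129 and 162 in coMO and 133 and 184 in uninjected embryos. Its ERbeta2 MO arrays were above the rest by a narrow margin, and coMO and uninjected arrays overlapped. These signals lie close to the filter, at about 146, which 7 of the 8 tested members exceeded in each group's mean while jag1a was just below it in coMO. The difference was log2 0.69 ± 0.22 (SE) against coMO (limma, adjusted p = 0.00978) and 0.59 ± 0.22 (SE) against uninjected embryos (limma, adjusted p = 0.0254). Leaving out ERbeta2 MO replicate 1 ended both calls (limma, adjusted p = 0.131 against coMO and 0.224 against uninjected embryos). Leaving out coMO replicate 1 ended the call against coMO (limma, adjusted p = 0.0885), and leaving out uninjected replicate 1 the call against uninjected embryos (limma, adjusted p = 0.218, with the log2 difference at 0.38).

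On the receiving side, the probe set shared by notch3 and another locus had 724 and 670 in ERbeta2 MO, 455 and 458 in coMO and 503 and 440 in uninjected embryos. The ERbeta2 MO arrays stood above the rest, among which the coMO values lay between the uninjected ones. The difference was log2 0.59 ± 0.15 (SE) against coMO (limma, adjusted p = 0.00263) and 0.55 ± 0.15 (SE) against uninjected embryos (limma, adjusted p = 0.00460). The second call ended without ERbeta2 MO replicate 1 (limma, adjusted p = 0.0561).

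aph1b, a subunit of the gamma-secretase that releases the intracellular part of Notch, had 1039 and 1007 in ERbeta2 MO, 589 and 623 in coMO and 552 and 557 in uninjected embryos. Replicates lay close together and the ERbeta2 MO arrays well above the others. The difference was log2 0.74 ± 0.14 (SE) against coMO (limma, adjusted p = 0.000175) and 0.86 ± 0.14 (SE) against uninjected embryos (limma, adjusted p = 3.08e-05).

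Both her genes encode basic helix-loop-helix repressors of the hairy and enhancer of split type, of which her6 is a Notch target in many tissues, whereas her9 is in part independent of Notch in zebrafish. her6 had 1218 and 1248 in ERbeta2 MO, 728 and 891 in coMO and 694 and 761 in uninjected embryos. The coMO and uninjected arrays overlapped and the ERbeta2 MO arrays stood clear of both. It was higher by a log2 of 0.60 ± 0.15 (SE) than in coMO (limma, adjusted p = 0.00140) and by 0.75 ± 0.15 (SE) than in uninjected embryos (limma, adjusted p = 0.000179). her9 had 1726 and 1558 in ERbeta2 MO, 1024 and 918 in coMO and 991 and 1158 in uninjected embryos. Here too coMO and uninjected arrays overlapped below the ERbeta2 MO arrays. Its difference was log2 0.75 ± 0.14 (SE) against coMO (limma, adjusted p = 0.000119) and 0.61 ± 0.14 (SE) against uninjected embryos (limma, adjusted p = 0.000963).

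**Figure D2:**
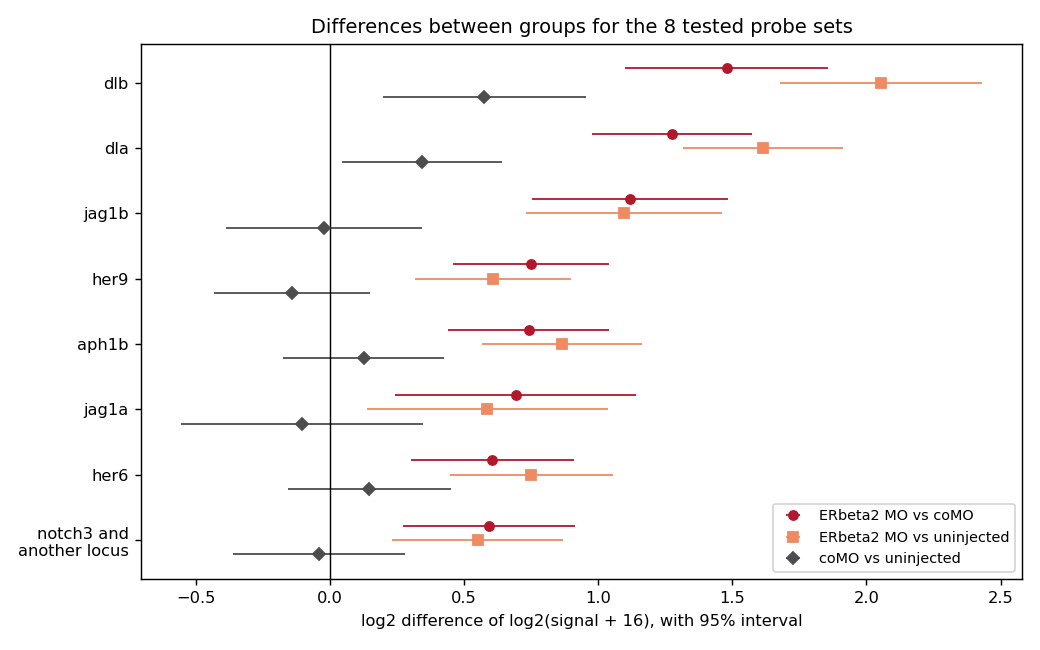
Log2 differences on the log2(signal + 16) scale with 95% intervals from limma for the 8 tested member probe sets, in the 3 comparisons, each with its first-named group over the other. Both comparisons of ERbeta2 MO lie above 0 for each gene, dlb and dla furthest to the right, and the comparison of coMO with uninjected embryos lies around 0 except for dlb and dla.

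Ordered by size against coMO, the differences ran from dlb through dla, jag1b, her9, aph1b, jag1a and her6 to the notch3 probe set. The 95% intervals of neighbours in this order overlapped throughout, and differences between genes were not tested. The interval of dlb against coMO was log2 1.10 to 1.86, and those of her9 (0.46 to 1.04), aph1b (0.44 to 1.04), her6 (0.30 to 0.91) and the notch3 probe set (0.27 to 0.91) lay below it. Against uninjected embryos the interval of dlb, 1.68 to 2.43, lay above those of all other tested members except dla (1.32 to 1.91). The order of the smaller differences changed there, with aph1b and her6 above jag1a and her9.

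All 8 tested members were thus higher in ERbeta2 MO than in coMO embryos, at a median log2 of 0.74, where 56.2% of the 9302 tested probe sets were called, 29.5% as higher and 26.8% as lower, and the median of all was 0.05. Against uninjected embryos all 8 were higher as well, at a median of 0.81, where 56.9% were called, 30.4% as higher and 26.5% as lower, and the median of all was again 0.05. The 2 comparisons share the ERbeta2 MO arrays. A fitted rise of at least 2-fold was found for 3 members, dla, dlb and jag1b, in each comparison, and for 7.87% of tested probe sets against coMO and 8.43% against uninjected embryos. In the whole distribution against coMO the differences were larger than those of 80.0% of tested probe sets for the notch3 probe set and of 97.7% for dlb. Against uninjected embryos these shares were 77.4% and 99.5%, so only 49 probe sets exceeded dlb.

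**Figure D3:**
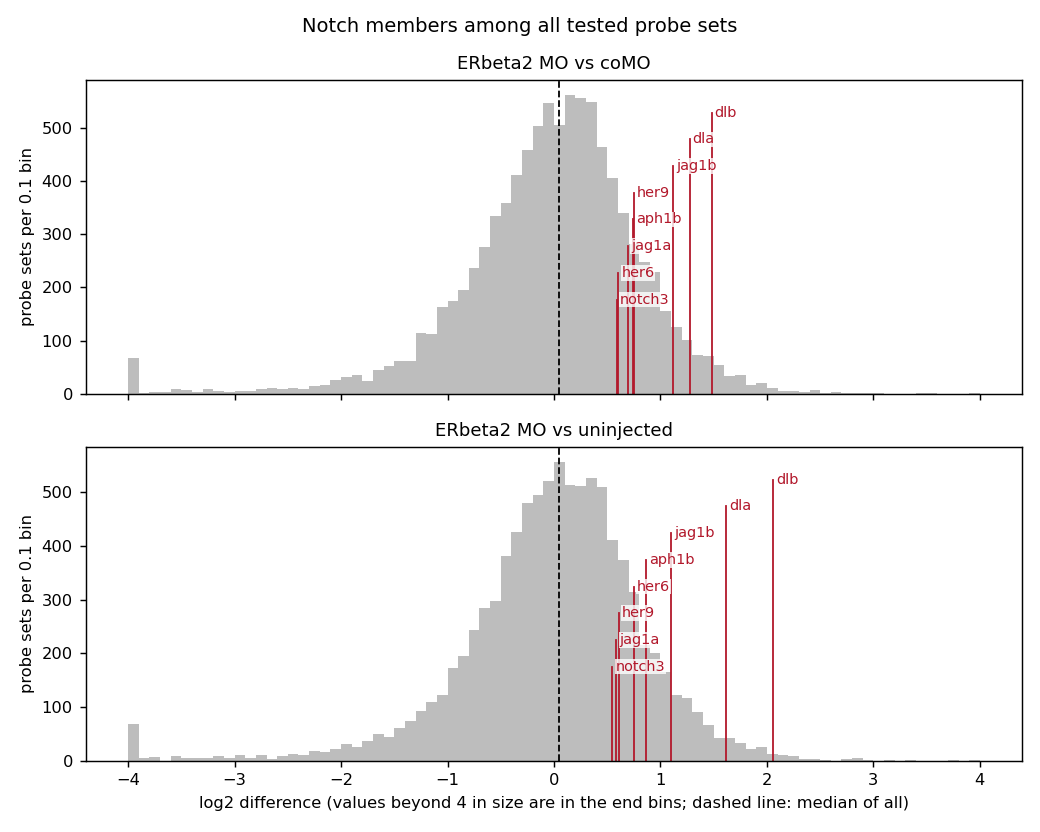
Histograms of the log2 difference of the 9302 tested probe sets, for ERbeta2 MO against coMO (top) and against uninjected embryos (bottom), with the 8 tested members marked and notch3 standing for the shared probe set. The members sit between log2 0.59 and 1.48 (top) and between 0.55 and 2.05 (bottom), within the right flank of a broad distribution whose median is 0.05.

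The comparison of coMO with uninjected embryos sets injection with the control morpholino against no injection, and no member is listed in the authors' table for it. None of the 8 passed in limma, where 0.505% of tested probe sets were called, 0.29% as higher and 0.215% as lower, and 2 members, dlb and dla, had an unadjusted p below 0.05, as did 734 of all tested probe sets. A fitted rise of at least 2-fold was found for 0 members and for 0.0645% of tested probe sets. For dlb the log2 difference was 0.57 ± 0.18 (SE), with a 95% interval of 0.20 to 0.95 (limma, adjusted p = 0.279). For dla it was 0.34 ± 0.14 (SE), with an interval of 0.04 to 0.64 (limma, adjusted p = 0.514). The other 6 had differences between -0.14 (her9) and 0.15 (her6), with 95% intervals that lay within -0.56 and 0.45, so that differences up to this size were not excluded. Both coMO arrays lay above both uninjected arrays for 3 tested members, dla, dlb and aph1b, against 17.5% of tested probe sets.

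The sizes depended on how the arrays were scaled. Under the 5 scalings run the members' differences between ERbeta2 MO and the other groups stayed positive. Median centring and the hybridization-control and poly-A scalings raised the ERbeta2 MO arrays relative to the others, so they could not have turned a rise into a fall. Of the alternatives only quantile normalization could have done so. The median log2 difference of all tested probe sets between ERbeta2 MO and coMO, 0.05 as deposited, was 0.06 with quantile normalization, 0.21 with median-centred arrays, 0.48 after scaling by the hybridization controls and 0.87 after scaling by the poly-A spikes. Members spanned log2 0.47 to 1.41 with quantile normalization and 1.42 to 2.31 with the poly-A spikes. Under all 5 scalings the 8 members lay above the median of all probe sets, in both comparisons of ERbeta2 MO, by at least 0.38 (quantile normalization, against uninjected embryos), and all 8 were called as higher. Median centring and the hybridization-control and poly-A scalings shift all probe sets of an array together. They could therefore hardly move a member relative to that median, and only quantile normalization could. Of the 9302 tested probe sets, those called as higher against coMO numbered 2740 as deposited, 2632 with quantile normalization, 3634 with median-centred arrays, 4721 with the hybridization controls and 6242 with the poly-A spikes. Against uninjected embryos they numbered 2827, 2608, 3531, 4296 and 4752 under the same scalings.

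**Figure D4:**
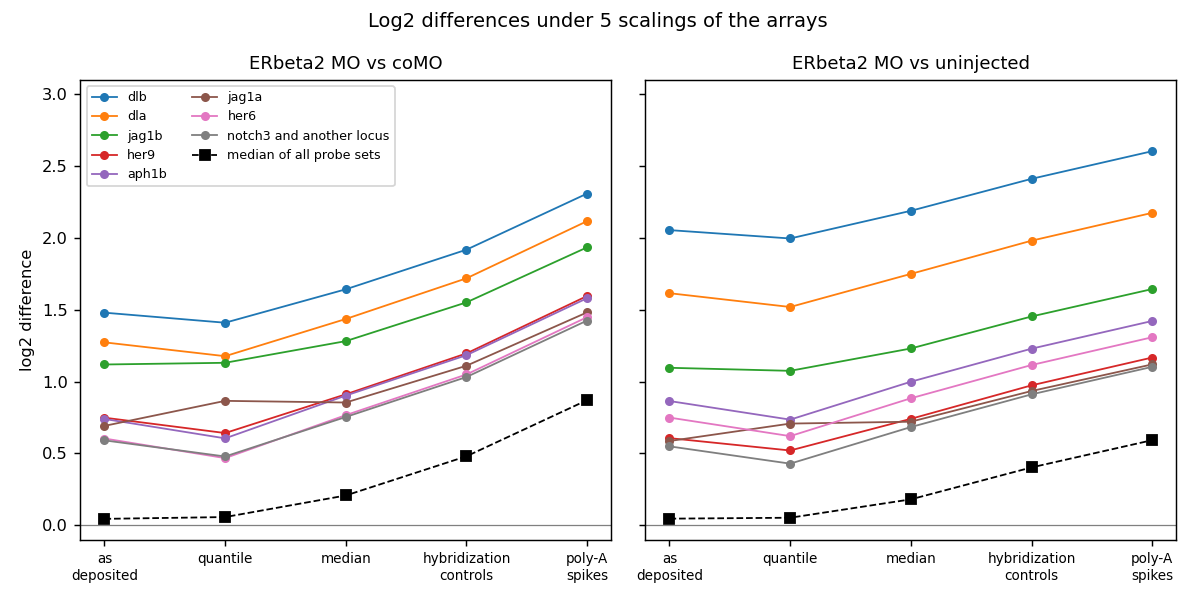
Log2 difference of each tested member under 5 scalings of the arrays, for ERbeta2 MO against coMO (left) and against uninjected embryos (right); black squares give the median of all tested probe sets. With the poly-A spikes the members stand at 1.42 to 2.31 on the left and the median at 0.87, because this scaling shifts members and median nearly together.

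In the authors' deposited tables the members' folds were mostly larger than the ratios of the deposited signals. For ERbeta2 MO over coMO, 8 member probe sets are listed, all but that of her6, and in the authors' deposited table the fold exceeded the ratio of mean signals for 100% of them, by a median factor of 1.31. Of all 1328 probe sets listed there above 2, the authors' deposited fold exceeded the signal ratio for 86.1%, by a median factor of 1.20, and the 1324 listed below 0.5 had a median factor of 0.964. The widest gap among members was that of the dim dlb probe set, at 3.58 in the authors' deposited table and 1.37 as a ratio of signals, and her9 stood at 2.27 in that table and 1.69 as a ratio. By the ratio of signals only 3 of the 8 listed, dla (2.45), dlb (2.87) and jag1b (2.25), would reach 2. Of all 1328 probe sets listed there above 2, 63.6% would. Because a rise is listed only at a fold of at least 2, any listed riser with a ratio below 2 has a larger fold by selection. The shares and median factors given here, against coMO and against uninjected embryos, are therefore fixed in part by the listing. For ERbeta2 MO over uninjected embryos 8 member probe sets are listed, all but that of notch3. There dlb stood at 4.81 in the authors' deposited table and 4.36 as a ratio of signals, and jag1b at 2.08 and 2.21. The authors' deposited fold exceeded the signal ratio for 75.0% of these 8, whose median factor was 1.18. For all 1362 probe sets listed there above 2 the values were 84.1% and 1.19. By the ratio of signals 4 of these 8 members would reach 2, and 65.3% of the 1362.

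**Figure D5:**
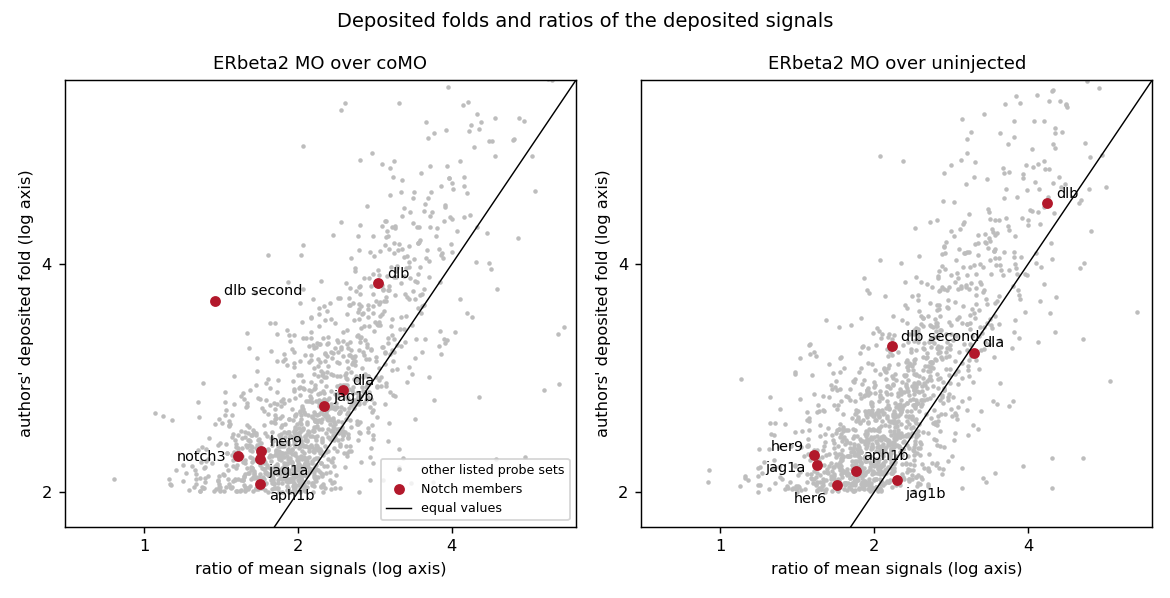
The authors' deposited fold against the ratio of mean signals, on log axes, for probe sets listed above 2 in each table; the line marks equal values, and probe sets beyond the axes are not shown. Most member points (red) lie above the line, the dim second probe set of dlb furthest, at 3.58 against 1.37 on the left. Points with a ratio below 2 lie above the line by selection, since only folds of at least 2 are shown.

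Of the rest of the pathway little can be read. A list of 98 further genes was drawn up by role in the pathway. Not all are particular to Notch, the tle corepressor genes and bhlhe40 among them. By updated symbol, 5 of them have a probe set named for them alone in the deposited tables, 4 with one past the filter. The list's remaining genes are unnamed in this sense: none of the other 8 ligands, of the 8 further genes of gamma-secretase and the sheddases, or of the 18 each of ligand processing and of the transcription complex has such a probe set. Probe sets that the authors' tables call ctbp1, a gene listed under the transcription complex, were not counted. Their symbol was updated to ctbp1l or they are shared with a further locus, and their signals are not given here. Of the 4 tested genes 3 rose and 1 fell in ERbeta2 MO, against coMO and against uninjected embryos alike, with a median log2 of 0.81 in both. Of all tested probe sets 29.5% against coMO and 30.4% against uninjected embryos were called as higher, and 26.8% and 26.5% as lower. None of the 4 passed between coMO and uninjected embryos. These genes, too, were named through the tables and so selected on the same samples.

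The 3 that rose were nrarpa, a Notch-induced feedback inhibitor of the receptor's intracellular part, and tle2a and tle3b, Groucho-type corepressors that bind Her proteins. nrarpa had 1781 and 2046 in ERbeta2 MO, 1295 and 967 in coMO and 1029 and 990 in uninjected embryos, and a log2 difference of 0.76 ± 0.15 (SE) against coMO (limma, adjusted p = 0.000186). For tle2a it was 1.07 ± 0.16 (SE; limma, adjusted p = 7.81e-06) and for tle3b 0.85 ± 0.15 (SE; limma, adjusted p = 7.30e-05). The gene that fell was bhlhe40, a helix-loop-helix repressor best known from the circadian clock, with 1499 and 1312 in ERbeta2 MO, 2826 and 2925 in coMO and 3286 and 3583 in uninjected embryos (log2 -1.03 ± 0.13, SE, against coMO; limma, adjusted p = 7.53e-07). With the poly-A scaling its fall against coMO was no longer called (log2 -0.18, limma, adjusted p = 0.510). Against uninjected embryos bhlhe40 stood at log2 -1.28 ± 0.13 (SE, limma, adjusted p = 3.00e-08). That fall was still called with the poly-A scaling (log2 -0.72, limma, adjusted p = 0.00635).

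A receptor gene of the list, notch1a, lay below the filter. Its signals were 214 and 243 in ERbeta2 MO, 77.7 and 74.7 in coMO and 61.0 and 86.7 in uninjected embryos, so both ERbeta2 MO arrays were above the other 4. With no filter, where 18.0% of all 15502 probe sets were called as higher against coMO, it rose by log2 1.41 ± 0.24 (SE; limma, adjusted p = 0.000404). Against uninjected embryos, where 18.8% were called as higher, it rose by log2 1.46 ± 0.24 (SE; limma, adjusted p = 0.000298).

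Genes listed as markers of the cells in which this pathway acts moved in both directions, and their part in the members' differences was not tested. They, too, were named through the authors' tables, so each had been listed as changed on these same samples. An unchanged gene could not be counted. The counts stand beside 29.5% of all tested probe sets called as higher than in coMO and 26.8% as lower. Marker values are those of the arrays as deposited, and values under the other scalings are not given. Over the whole array 2491 probe sets were called as lower than in coMO as deposited, but 496 with the poly-A spikes. A marker's fall may therefore not hold under that scaling. Of 14 genes on a list for proneural cells and early neurons 5 are named, 3 higher and 2 lower in ERbeta2 MO than in coMO, with summed signals of 6308 and 6593 in ERbeta2 MO, 4864 and 4972 in coMO and 4921 and 4632 in uninjected embryos. Of these 5, neurod4 (log2 1.33), insm1b (1.33) and elavl3 (1.09) rose against coMO, and neurod1 (-1.24) and neurod6b (-1.20) fell. neurog1, which commits cells to a neuronal fate, is not among the 5 and was picked after its values were seen. It shares its probe set with a further locus, and that probe set was higher in ERbeta2 MO than in coMO by log2 2.01 ± 0.22 (SE; limma, adjusted p = 9.35e-08). For mature neurons 5 of 11 genes are named by 7 probe sets, and the 6 that were tested fell, with sums of 8193 and 8087 in ERbeta2 MO, 17903 and 17053 in coMO and 17251 and 17960 in uninjected embryos. For neuromasts and hair cells 6 of 15 genes are named, 2 higher and 4 lower, with sums of 2345 and 2271 in ERbeta2 MO, 9784 and 9559 in coMO and 8837 and 9292 in uninjected embryos. Against coMO krt15 (log2 -3.51), pvalb8 (-3.10), calb2b (-2.13) and otofa (-1.27) fell, and lef1 (0.63) and fgf10a (1.25) rose. None of these 6 was shown here to mark only those cells, so the sums do not count neuromast or hair cells. Neural progenitors and radial glia are represented by 2 of 15 genes, which moved in opposite directions: the cell adhesion gene cdh2 rose by log2 1.51 ± 0.20 (SE) against coMO (limma, adjusted p = 1.92e-06). The transcription factor gene pax6b, below the filter and fitted with none, stood at log2 -2.38 ± 0.30 (SE) against coMO (limma, adjusted p = 3.12e-05) and -2.17 ± 0.30 (SE) against uninjected embryos (limma, adjusted p = 6.61e-05). Of the list drawn up for arterial endothelium 2 of 10 genes are named, and neither was shown here to mark that tissue. They again moved in opposite directions against coMO: the growth factor gene vegfaa rose by log2 1.46 ± 0.18 (SE; limma, adjusted p = 8.86e-07). The transcription factor gene tal1, also below the filter and fitted with none, stood at log2 -0.92 ± 0.29 (SE) against coMO (limma, adjusted p = 0.0222) and at -0.63 ± 0.29 (SE) against uninjected embryos, which did not pass (limma, adjusted p = 0.104). The summed signals were 854 and 822 in ERbeta2 MO, 330 and 524 in coMO and 411 and 415 in uninjected embryos for the 2 genes of the neural progenitor list. For vegfaa and tal1 together they were 532 and 538, 325 and 256, and 247 and 249 in the same groups. No marker was at 0 on any array.

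The named genes whose profiles lay closest to each member over the 6 arrays were found by the root mean square difference of log2 values centred on their own mean, among 1376 named genes. For dla they were cdkn1ca, a cell cycle inhibitor (0.0706), and exosc6, a subunit of the RNA exosome (0.0716). For dlb the nearest, imp4, a factor of ribosome assembly, was further off (0.137), followed by hspa14 (0.140). The smallest distances were rpp14 for aph1b (0.0310) and the cyclin-like gene ccnjl for jag1b (0.0310), with eif5 (0.0382) and srrm2 (0.0394) next. For her6 they were the histone methyltransferase gene ehmt2 (0.0435) and thoc5 (0.0686), and for her9 the homeobox gene irx1b (0.0684) and josd2 (0.0709). For the notch3 probe set they were nme5 (0.0532) and the chaperonin gene cct3 (0.0731), and for jag1a the signalling inhibitor smad7 (0.0947) and atpsckmt (0.0992). Among the members themselves her6 and aph1b lay closest (0.0939) and dlb and jag1a furthest apart (0.658). The 1376 candidates were named through the authors' tables, so each had been listed as changed in at least 1 comparison of these samples. Neighbours that also change were thus favoured by selection. These distances share the same 6 arrays and are a description of them.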

How the data were processed

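Probe set intensities were taken from the deposited value table; they are MAS5 signals per the submitters' processing notes, on a linear scale, with software version and settings not stated. Fold changes in the deposited comparison tables are linear ratios between groups per the file headers, none of them between 0.5 and 2, and the sources used here do not say how the authors computed them. Detection calls were not used, and depth does not apply to arrays, whose number limits the precision. Symbols came from these tables and were updated through RefSeq's gene table (GRCz12tu): 7 members matched by GeneID. Of the 2 GeneIDs of the notch3 probe set 1 is in that table, and the transcript accession is that of notch3. Groups follow the sample titles.

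From the intensities, log2(signal + 16) was taken. After removal of 115 controls and of the dimmest 40% of the rest, ranked by mean log2 signal, 9302 probe sets were tested. limma 3.58.1 in R 4.3.3 (lmFit, eBayes with a trend) was fitted to all 6 arrays with 3 residual degrees of freedom and no replicate block, with Benjamini-Hochberg adjustment over the tested probe sets. Since eBayes moderates each variance towards a trend with mean signal over all tested probe sets, p-values rest on the spread of other probe sets too. SE and 95% intervals are limma's moderated ones. The fit was tested on simulated data of 9302 probe sets. For ERbeta2 MO against coMO it recovered 41.8% of 67 planted 1.5-fold changes, 94.0% of 67 planted 2-fold ones and 100% of 66 planted 4-fold ones, and 7.65% of its calls were false. The planted changes were far fewer than the 56.2% of probe sets called on the real arrays, and the noise was random. These rates therefore check the code and do not carry over to the real comparison. The members, the pathway and marker lists and the tests were chosen with earlier results of these data known. Named were all members, each listed pathway gene with a named probe set past the filter, and the 2 nearest named genes per member; notch1a, neurog1, LOC559948 and single marker genes were added after their values were seen. Other offsets, filters, scalings, fits and left-out replicates were tried. No sequences were used here. The value table had 0 columns without a sample.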

Additional observations from a re-analysis of the deposited data

How the results depend on the processing

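Over 17 alternatives the members' log2 differences between ERbeta2 MO and the other groups kept their sign, and all calls except those of jag1a and the notch3 probe set held. Other filters, a fit with no trend, the replicate block and a fit of only the groups compared leave the log2 difference unchanged by construction. So does leaving out an array of the third group. The sign could therefore turn in only some of the alternatives. Against coMO 132 of 134 values kept their call, and the 2 lost are those of jag1a given above. Against uninjected embryos 130 of 134 did; besides the left-out replicates given above, jag1a was lost with no filter (limma, adjusted p = 0.0518). With no filter 8 of 9 member probe sets were called in each of these comparisons, beside 6333 (coMO) and 6157 (uninjected) of all 15502. With the lowest 60% left out 6 of 6 remained to be tested and were called, beside 3743 and 3829 of 6201. Leaving out 1 replicate at a time gave 7 to 8 members called against coMO, beside 4126 to 5330 of all 9302, and 6 to 8 against uninjected embryos, beside 4139 to 5403. Between coMO and uninjected embryos no alternative called a member. There the sign of values near 0 turned: aph1b stood at -0.16 and her6 at -0.14 with the poly-A scaling, and with 1 replicate left out jag1a ran from -0.32 to 0.11, jag1b from -0.13 to 0.081 and the notch3 probe set from -0.14 to 0.05. The 47 probe sets called over the whole array between coMO and uninjected embryos became 21 with no filter, 16 with the hybridization controls, 19 with the poly-A spikes, 11 with no trend and 10 to 41 with 1 replicate left out (16 without coMO replicate 1, 10 without coMO replicate 2 and 15 without uninjected replicate 2); the cause was not tested. Over the whole array the split of calls against coMO was 2740 higher and 2491 lower as deposited, 2794 against 3539 when nothing was filtered, 3634 against 1928 on median-centred arrays, 4721 against 1090 on arrays scaled by hybridization controls and 6242 against 496 by poly-A spikes. Against uninjected embryos it was 2827 against 2468 as deposited, and in the same order of settings 2918 against 3239, 3531 against 1988, 4296 against 1186 and 4752 against 750.

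The titles number replicates 1 and 2 in each group, and nothing says that a number marks a shared clutch or day. Deviations of same-numbered arrays from their group means correlated at 0.0156 between ERbeta2 MO and coMO, 0.0134 between ERbeta2 MO and uninjected and 0.118 between coMO and uninjected embryos. With the replicate block 8, 8 and 0 members were called in the 3 comparisons, as without it. Over the whole array 5399 of 9302 probe sets were called against coMO, 5498 against uninjected embryos and 92 between coMO and uninjected embryos.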

Other observations

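A probe set described in the authors' tables as similar to Notch 2 (LOC559948), picked after its values were seen, fell in ERbeta2 MO. The dim notch1a probe set and the shared notch3 probe set, the only other receptor probe sets given here, rose. Its signals were 45.2 and 46.6 in ERbeta2 MO, 145 and 128 in coMO and 138 and 190 in uninjected embryos, so the ERbeta2 MO arrays lay below the rest. It was too dim to pass the filter. With no filter, 3539 of all 15502 probe sets were called as lower against coMO and 3239 against uninjected embryos. In these fits the LOC559948 probe set stood at log2 -1.30 ± 0.25 (SE) against coMO (limma, adjusted p = 0.000859) and -1.52 ± 0.25 (SE) against uninjected embryos (limma, adjusted p = 0.000241). The authors' deposited tables give it folds of 0.399 and 0.281 in these comparisons, and give notch1a 4.35 and 5.96. Whether the predicted gene is notch2 or a related locus is not settled by the tables.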
